A study of Mus musculus with 60 samples.

Results

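The genes described here are 38 mouse genes of the p53 pathway: Trp53 itself, the regulators that feed back on it, and genes that textbooks list as its direct transcriptional targets. They were chosen by name, with earlier results of these data known, from the 49315 genes counted in whole blood of 60 male CD2F1 mice. The mice were 5 to 6 weeks of age at purchase, and their age at bleeding is not given in the sources used here. The mice had been given BIO 300, a synthetic genistein formulation, or its vehicle (water with methylcellulose and povidone) by oral gavage, 12 doses over 6 days, and all groups shared this gavage. Blood came from a terminal bleed, and there were 10 groups of 6 mice.

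The 4 groups of Day 0 (vehicle, or BIO 300 at 50, 100 or 200 mg/kg) were bled 24 h after dosing ended. The 4 unirradiated groups of Day 1 had the same treatments and were bled 48 h after dosing ended. The last pair of groups received 9.2 Gy of total-body irradiation 24 h after dosing with vehicle or with 200 mg/kg BIO 300 had ended, and were bled 24 h later, also on Day 1. There was no irradiated group at the lower doses and no irradiated group at a second time, so dose and time after exposure cannot be described for the irradiated blood. The labels give the doses as low, medium and high, and the amounts come from the methods of the study.

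p53 is a transcription factor that is kept scarce by the ubiquitin ligase Mdm2 and its partner Mdm4. DNA damage activates the kinases Atm, Atr, Chek1 and Chek2, p53 protein is stabilised mostly without any change in its mRNA, and it binds a response element made of a pair of adjoining decamers near its target genes. The targets stop the cell cycle (Cdkn1a, which encodes p21), start apoptosis (Bax, Bbc3, Pmaip1), assist DNA repair and nucleotide supply, adjust metabolism, and close the loop by raising Mdm2. Lymphocytes in blood are among the most radiosensitive cells of the body, and several of these transcripts are used in radiation biodosimetry.

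The response element is shown for the members whose promoter window holds a match, because p53 binds elements of this kind. Whether p53 binds the matches shown here was not measured. RefSeq (GRCm38.p6) listed a window from 250 bases before to 50 bases after a start site for 30 of the 38 members. The search was for the p53 response element by its name, as a pair of adjoining decamers with no spacer, with the central C and G of each decamer required and up to 3 mismatches allowed over its 20 bases. The element is its own reverse complement, so both strands were read by the same search. A match with at most 3 mismatches lay in 7 of 30 members (23.3%) and in 441 of 27025 genes with a window (1.63%). A match with at most 1 mismatch lay in 3 of 30 members (10%) and in 22 of the 27025 genes (0.0814%). Each sequence is given 5′ to 3′ on the strand of its gene, with the match in capitals.
Cdkn1a: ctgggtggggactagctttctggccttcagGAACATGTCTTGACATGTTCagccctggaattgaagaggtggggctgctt
Ccng1: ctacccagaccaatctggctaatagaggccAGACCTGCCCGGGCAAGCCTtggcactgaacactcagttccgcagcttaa
Rps27l: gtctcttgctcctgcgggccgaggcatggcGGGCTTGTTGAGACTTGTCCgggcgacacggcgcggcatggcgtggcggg
Bbc3: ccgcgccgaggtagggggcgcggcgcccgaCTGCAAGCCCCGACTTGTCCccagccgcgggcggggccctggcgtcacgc
Sesn1: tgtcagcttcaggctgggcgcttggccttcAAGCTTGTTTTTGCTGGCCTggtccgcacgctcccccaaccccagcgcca
Trp53: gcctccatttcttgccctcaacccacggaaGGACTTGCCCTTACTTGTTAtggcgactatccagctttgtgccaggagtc
Aen: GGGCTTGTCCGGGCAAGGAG

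The Cdkn1a match (chr17:29090928-29090947, plus strand, 1 mismatch) ended 31 bases before the start site, upstream of the annotated transcripts. The Ccng1 match (chr11:40755462-40755481, minus strand, 1 mismatch) ended 175 bases before the start and was also upstream of the gene. The Rps27l match (chr9:66946296-66946315, plus strand, 1 mismatch) lay in an intron, before an alternative start. The matches with 3 mismatches lay in introns of Bbc3 (chr7:16309486-16309505, plus strand) and Sesn1 (chr10:41887266-41887285, plus strand), in an exon of Aen (chr7:78895937-78895956, plus strand) and upstream of Trp53 (chr11:69580284-69580303, plus strand). These matches are descriptions of letters in a window; elements elsewhere in a gene, such as in introns far from the start, were not searched.

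The libraries held between 15099415 and 45589415 counts, with a median of 24877993.5. Levels below are CPM, a gene's counts relative to the library total after TMM scaling over all 60 mice, and fold changes come from the edgeR quasi-likelihood test of the groups compared. A gene was called when its Benjamini-Hochberg adjusted p, over all genes tested, was under 0.05 and its log2 fold change was over 1 in either direction; a called gene is said to have risen or fallen. All 38 members passed the low-count filter in each comparison. In 10 mice the hepatocyte transcript Alb exceeded 100 CPM of the unscaled library total (310.6 to 21977 CPM), at least 1 mouse in each group except unirradiated 50 mg/kg on Day 1; these are called the mice with high Alb. With TMM scaling mouse 39 (100 mg/kg, Day 1; 121.1 CPM) exceeded 100 CPM as well, and it was not counted among them. Blood cell markers also differed between groups, and in a bulk sample fewer cells of a type and less RNA per cell cannot be told apart.

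Irradiation alone was read in irradiated, vehicle-treated mice against unirradiated vehicle-treated mice of the same day. Of the 38 members 23 rose and 3 fell, where 19.6% of the 25146 genes tested rose and 16.4% fell. The median log2 fold change was 1.39 over the members and 0.09 over all genes. The 3 that fell were Trp53, Ddb2 and Sesn1. In 22 of the 26 called members the irradiated and unirradiated mice did not overlap. Overlap was not computed over all genes, so this count cannot be read as particular to the members. When counts were scaled to the library total instead of by TMM, the median of all genes shifted by -0.36 and 15 members rose and 4 fell. With that scaling 3115 of the 25146 genes rose and 5666 fell. Marker genes moved in the same blood: all 8 B cell and all 8 T cell markers fell, and all 8 neutrophil and all 7 platelet markers rose. Summed B cell markers ran from 1088.6 to 1681.4 CPM without irradiation and from 46.07 to 119.4 CPM after it, and summed neutrophil markers from 434.1 to 706.3 and from 1183.1 to 6670 CPM. The part of these cell types in the members' changes was not tested.

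**Figure D1:**
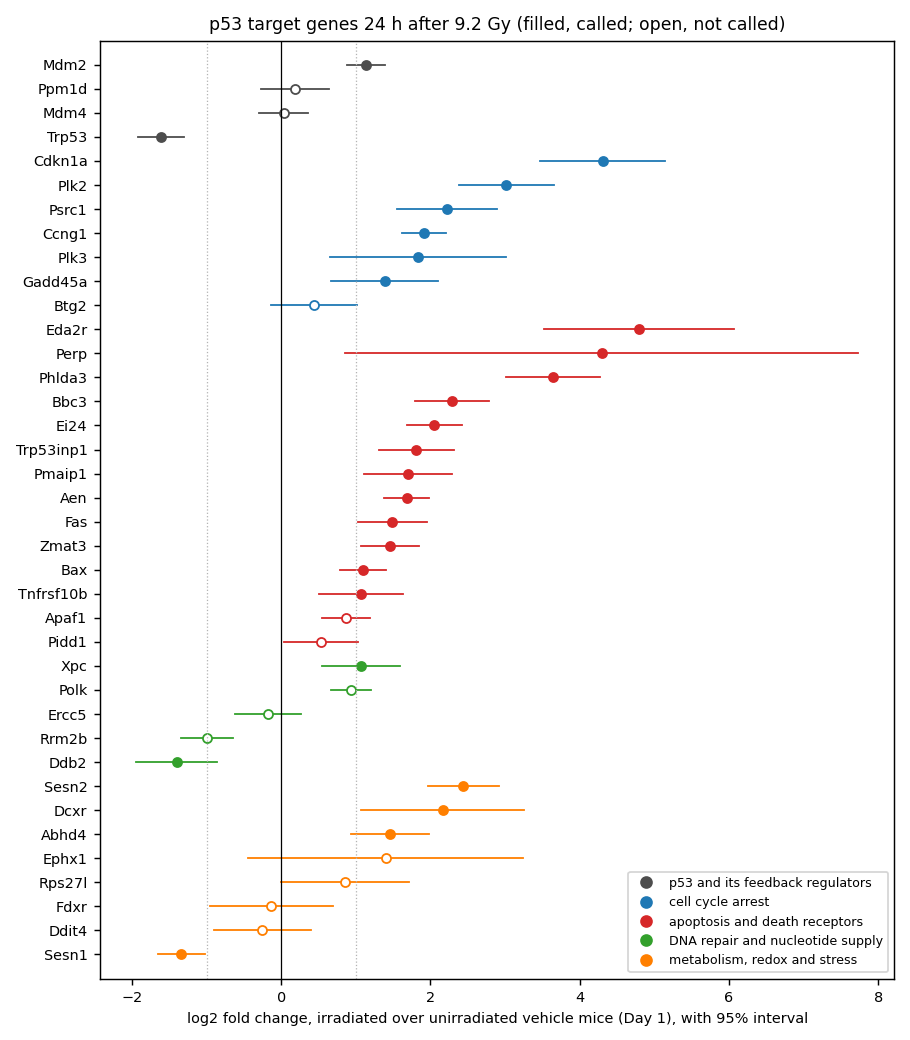
Log2 fold change of each of the 38 members between irradiated and unirradiated vehicle-treated mice on Day 1 (6 mice a group), by role; bars are 95% intervals and filled points are called members. Most of the arrest and apoptosis members lie right of 0, with Eda2r and Cdkn1a farthest, and Trp53, Ddb2 and Sesn1 are the filled points on the left.

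Among p53 and its feedback regulators, the mRNA of p53 fell and that of its main inhibitor rose. Trp53 (ENSMUSG00000059552, chr11:69580359-69591873) ran from 24.8 through a median of 29.2 to 35.4 CPM in the unirradiated vehicle mice and from 8.76 through 9.51 to 13.6 CPM in the irradiated ones, a log2 fold change of -1.61 (SE 0.14, adjusted p = 6.4e-06). The highest irradiated mouse lay well below the lowest unirradiated one. Mdm2 (ENSMUSG00000020184, chr10:117688875-117710758), the ligase that marks p53 for degradation, ran from 30.6 through 32.5 to 34.3 CPM and from 61.9 through 75.9 to 81.8 CPM (log2 1.13, SE 0.12, adjusted p = 1.73e-05), again with no overlap. Mdm4, the partner of Mdm2, had a log2 fold change of 0.03, and Ppm1d, the phosphatase that reverses damage signalling, of 0.18; neither was called. The ratio of Mdm2 to Trp53 counts within a mouse does not depend on library scaling. It ran from 0.923 to 1.39 in the unirradiated vehicle mice and from 4.54 to 8.99 in the irradiated ones, which were different animals.

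The cell cycle arrest genes rose in 6 of 7 members, where 19.6% of all genes rose. Cdkn1a (ENSMUSG00000023067, chr17:29090976-29100727), the inhibitor of cyclin-dependent kinases, ran from 1 through 1.82 to 2.38 CPM in unirradiated mice. After irradiation it ran from 16.7 through 27.7 to 78.4 CPM, and its log2 fold change was 4.31 (SE 0.39, adjusted p = 6.95e-06), or 19.8-fold. All 6 irradiated mice lay far above all 6 controls. The ratio of Cdkn1a to Trp53 within a mouse ran from 0.0254 to 0.175 over the 48 unirradiated mice of all 8 groups, and from 1.91 to 5.75 in irradiated, vehicle-treated mice.

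Ccng1, cyclin G1, whose promoter match is shown above, ran from 47.5 through 49.5 to 53.6 CPM without irradiation and from 163 through 195 to 225 CPM with it (log2 1.92, SE 0.14, adjusted p = 1.76e-06). Both groups were narrow and lay far apart. Plk2, a polo-like kinase of the stress response, went from a range of 0.663 to 1.61 CPM to one of 5.08 to 14.8 CPM (log2 3.02, SE 0.30, adjusted p = 1.17e-05). Psrc1, a microtubule-associated protein, ran from 2.19 through 3.33 to 4.48 CPM and from 5.63 through 17.4 to 22.2 CPM (log2 2.22, SE 0.31, adjusted p = 0.000117). Gadd45a, a growth arrest and stress signalling gene, rose by 1.39 (SE 0.33, adjusted p = 0.00451) with overlapping groups: the irradiated mice ran from 19.3 to 122 CPM and the controls from 23.5 to 35 CPM. Plk3, a related kinase, rose by 1.83 (adjusted p = 0.015), and without the mice with high Alb its log2 fold change was 0.93 and not called. Btg2, an antiproliferative gene, was the arrest member that was not called (0.44, adjusted p = 0.185).

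Of the 14 members of apoptosis and the death receptors 12 rose and none fell, where 19.6% of all genes rose and 16.4% fell. Bbc3 (Puma), which frees Bax and Bak from their inhibitors, ran from 6.52 through 7.84 to 8.77 CPM in controls and from 17.9 through 43.9 to 46.7 CPM after irradiation (log2 2.29, SE 0.23, adjusted p = 1.32e-05). Phlda3, which blocks Akt at the membrane, ran from 1.43 through 1.98 to 4.13 CPM and from 20.2 through 30.1 to 41.2 CPM (log2 3.64, SE 0.29, adjusted p = 3.75e-06). Neither gene had an irradiated mouse in the range of the controls. Eda2r, a receptor of the TNF family, was scarce without irradiation, from 0.0491 through 0.0552 to 0.343 CPM, and ran from 1.13 through 2.64 to 6.31 CPM after it (log2 4.79, SE 0.59, adjusted p = 4.84e-05). Ei24, a protein of the endoplasmic reticulum, ran from 13.8 through 15.4 to 16.5 CPM and from 38.6 through 66.2 to 90.2 CPM (log2 2.05, SE 0.17, adjusted p = 4.52e-06).

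Aen, a nuclease that takes part in apoptotic DNA fragmentation, ran from 7.88 through 8.08 to 9.89 CPM and from 23 through 27.6 to 34.4 CPM (log2 1.68, SE 0.14, adjusted p = 4.42e-06), without overlap. The death receptors Fas and Tnfrsf10b rose by 1.49 and 1.07 on the log2 scale. The pore-forming Bax, the BH3-only Pmaip1 (Noxa), the zinc finger protein Zmat3 and Trp53inp1 rose by 1.10, 1.70, 1.46 and 1.81. The adaptor Apaf1 (0.87, adjusted p = 0.000466) passed the p threshold but not the fold limit, and the scaffold Pidd1 had 0.53 (adjusted p = 0.071). Leaving out the mice with high Alb put Apaf1 at 1.06, called, and Tnfrsf10b at 0.96, not called. Perp, a tetraspan membrane protein, is described with the liver transcripts below.

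Of the 5 members of DNA repair and nucleotide supply 1 rose, 1 fell and 3 were not called. These counts are close to the shares of all genes, of which 19.6% rose and 16.4% fell. Ddb2, which recognises ultraviolet lesions, fell from a range of 7.27 to 8.88 CPM to one of 1.27 to 4.69 CPM (log2 -1.40, SE 0.25, adjusted p = 0.000679). Xpc, which works beside it in nucleotide excision repair, ran from 16.7 through 17.8 to 19.5 CPM and from 19.8 through 38.5 to 60 CPM (log2 1.07, SE 0.24, adjusted p = 0.00319). These partners in the same repair pathway moved in opposite directions, and neither showed overlap between groups. Rrm2b, the p53-inducible ribonucleotide reductase subunit, had -0.99 (adjusted p = 0.000325), just inside the fold limit. The polymerase Polk had 0.93 (adjusted p = 7.77e-05), and the nuclease Ercc5 had -0.17 (adjusted p = 0.499).

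Among the 8 members of metabolism, redox and stress 3 rose and 1 fell, where 19.6% of all genes rose and 16.4% fell. Sesn1 and Sesn2, both sestrins that restrain mTORC1, went opposite ways. Sesn2 ran from 5.09 through 5.45 to 7.69 CPM and from 20.1 through 31.5 to 45.2 CPM (log2 2.44, SE 0.22, adjusted p = 7.34e-06). Sesn1 ran from 40.5 through 46.3 to 56.5 CPM and from 15.4 through 18.7 to 27 CPM (log2 -1.34, SE 0.15, adjusted p = 2.39e-05). In both genes the groups were fully apart. Abhd4, a lipid hydrolase, rose by 1.46 (SE 0.24, adjusted p = 0.000367), and Dcxr, a xylulose reductase, by 2.16 (SE 0.50, adjusted p = 0.0038). The mTORC1 inhibitor Ddit4 (-0.25), the mitochondrial reductase Fdxr (-0.13), the ribosomal protein Rps27l (0.86) and the epoxide hydrolase Ephx1 (1.40) were not called.

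**Figure D2:**
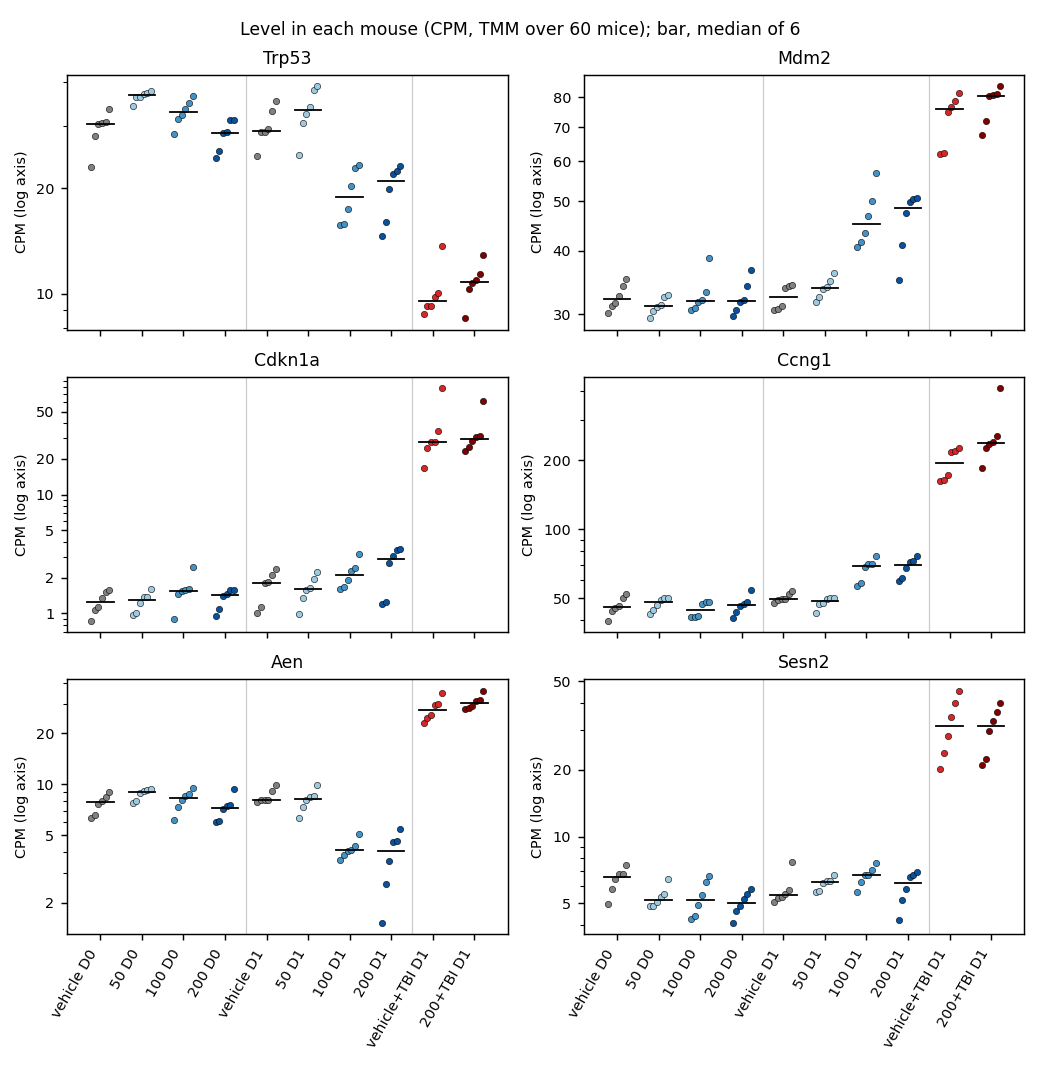
CPM on a log axis of Trp53, Mdm2, Cdkn1a, Ccng1, Aen and Sesn2 in each of the 60 mice, by group; a point is a mouse and a bar the group median. With TMM scaling the irradiated groups at the right lie apart from the 8 unirradiated ones in each panel, below them for Trp53 and above them for the other genes.

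Against the vehicle mice of Day 0 the irradiated, vehicle-treated mice had 21 members higher and 3 lower, where 15.1% of 24751 genes rose and 11.8% fell. The same irradiated mice enter both comparisons. Trp53, Ddb2 and Sesn1 were lower again, at -1.47, -1.07 and -1.17. Eda2r (5.45), Cdkn1a (4.83), Phlda3 (3.29), Plk2 (2.92), Sesn2 (2.43), Ccng1 (2.16), Bbc3 (2.13), Psrc1 (2.02), Ei24 (1.97), Dcxr (1.80) and Mdm2 (1.25) were higher. The call of Dcxr was lost in 8 of the 12 fits that left out a mouse, with 1.18 without mouse 51 (irradiated, vehicle). Gadd45a (0.93, adjusted p = 0.0656) and Abhd4 (0.88, adjusted p = 0.0241) were not called against this group. The unirradiated vehicle groups of the 2 days were compared directly. By edgeR 0 members and 0% of all genes were called, and by DESeq2 0 members and 37 of 24375 genes. An unadjusted edgeR p under 0.05 was reached by 5 members and by 3007 of 24375 genes in all.

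The second irradiated group had received 200 mg/kg BIO 300 before exposure. Against unirradiated vehicle mice of Day 1, 21 members rose and 3 fell in it, where 19.6% of 25374 genes rose and 16.9% fell. With library totals 14 members rose and 5 fell, where 2701 of 25374 genes rose and 7019 fell. The members that fell were again Trp53 (-1.49), Ddb2 (-1.55) and Sesn1 (-1.03). Cdkn1a ran from 23.1 through 29.4 to 61.1 CPM (log2 4.25, SE 0.29, adjusted p = 7.01e-07) and Mdm2 from 67.6 through 80.7 to 84.2 CPM (log2 1.25, SE 0.10, adjusted p = 2.68e-06). Eda2r rose by 5.08, Phlda3 by 4.20, Plk2 by 2.98, Bbc3 by 2.86, Psrc1 by 2.61, Sesn2 by 2.38, Ccng1 by 2.34, Ei24 by 2.24 and Dcxr by 1.73 on the log2 scale. Trp53 ran from 8.52 through 10.8 to 12.9 CPM, again below every unirradiated vehicle mouse. All 8 B cell and all 8 T cell markers fell in this comparison too, and all 7 platelet markers rose.

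The effect of the drug under irradiation was read by comparing both irradiated groups with each other. By edgeR 0 of the 38 members were called, where 0% of 24916 genes were called in either direction, and DESeq2 also called 0 members. An unadjusted p under 0.05 was reached by 1 member and by 688 genes in all. That member was Ddit4, which ran from 8.37 through 14.7 to 20.5 CPM with vehicle and from 21.6 through 28.2 to 32 CPM with BIO 300, without overlap (log2 0.84, 95% interval 0.31 to 1.37, adjusted p = 0.9999). For 28 of the 38 members the 95% interval of the difference stayed within 1 log2 unit in both directions, and for 10 it reached that size. The difference was 0.04 for Trp53, 0.04 for Mdm2 and -0.11 for Cdkn1a. The summed level of all 38 members ran from 1480.8 through 1868.7 to 1986.9 CPM with vehicle and from 1767.5 through 2036.8 to 2223 CPM with BIO 300, and these ranges overlapped.

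Irradiation was also read within the drug, with irradiated against unirradiated mice at 200 mg/kg. Here 20 members rose and 0 fell by edgeR, where 14.9% of 23610 genes rose and 5.73% fell. DESeq2 gave the same member counts, with 3507 genes higher and 1300 lower. With library totals, which shifted the median of all genes by 0.90, 28 members rose and 0 fell, where 9100 of 23610 genes rose and 223 fell. The 3 largest rises were those of Cdkn1a (log2 3.67, SE 0.35, adjusted p = 3.1e-05), Aen (2.99, SE 0.25, adjusted p = 2.32e-05) and Eda2r (2.93, SE 0.66, adjusted p = 0.00512). Plk2 rose by 2.39, Sesn2 by 2.30, Ei24 by 1.98, Ccng1 by 1.86, Dcxr by 1.75, Bbc3 by 1.67 and Phlda3 by 1.24. Of the members that fell against vehicle mice, Trp53 had -0.92 (adjusted p = 0.000874), Ddb2 0.09 and Sesn1 -0.47, none of them called. All 8 B cell and 5 of 7 erythroid markers fell in this comparison, 7 of 8 neutrophil markers rose and 0 of 7 platelet markers were called, and their part in the members' changes was not tested. Mdm2 had 0.69 (adjusted p = 0.00248), under the fold limit. Gadd45a (-0.21), Psrc1 (0.01) and Abhd4 (-0.10), which rose against vehicle mice, were not called here.

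The difference between these responses was tested as an interaction over the 24 mice of the 4 groups: the drug effect with irradiation minus the drug effect without it. It was higher in 8 members and lower in 4, where 19.5% of 26875 genes were higher and 10% lower. The median was 0.06 over the members and 0.60 over all genes. The lower members were Phlda3 (-2.27, SE 0.35, adjusted p = 0.00011), Psrc1 (-2.07, SE 0.39, adjusted p = 0.000502), Gadd45a (-1.45) and Abhd4 (-1.43). The higher ones were Ddb2 (1.61, SE 0.33, adjusted p = 0.000951), Aen (1.42), Tnfrsf10b (1.35), Mdm4 (1.10), Ddit4 (1.06), Xpc (1.02), Rrm2b (1.01) and Sesn1 (1.00). The interaction of Cdkn1a (-0.52, adjusted p = 0.451), Mdm2 (-0.31, adjusted p = 0.0988) and Sesn2 (-0.01, adjusted p = 0.999) was not called. With DESeq2 3 members were higher and 4 lower, where 4620 genes were higher and 3152 lower. With library totals, which shifted the median of all genes by 1.08, 20 members were higher and 1 lower. Of the 26875 genes 11725 were higher and 483 lower with that scaling. The count was 8 in all without vehicle mouse 26 of Day 1. Among the markers, all 7 platelet and 4 of 7 erythroid genes were lower in the interaction and all 8 B cell and all 8 T cell genes were higher; their part in the members' values was not tested.

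**Figure D3:**
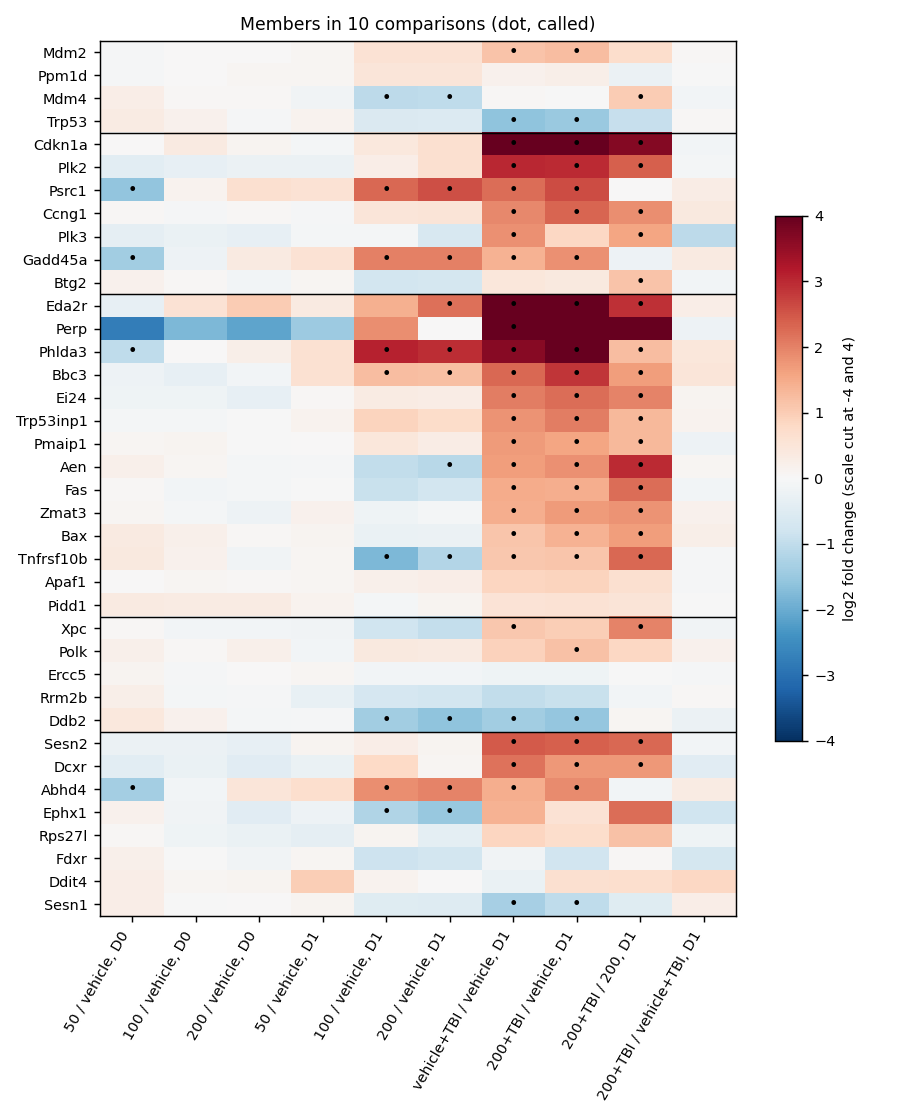
Log2 fold change of the 38 members (grouped by role) in 10 comparisons, with colour cut at 4 in either direction and a dot where a member was called. The irradiation columns hold most dots, the irradiated groups set against each other hold none, and the 100 and 200 mg/kg columns of Day 1 hold fewer dots, in both directions.

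Without irradiation BIO 300 was followed across dose and day. On Day 0, 4 members fell at 50 mg/kg and 0 rose, where 4.38% of 24485 genes fell and 0.127% rose. They were Psrc1 (log2 -1.57, SE 0.26, adjusted p = 0.00266), Gadd45a (-1.39, SE 0.21, adjusted p = 0.00255), Abhd4 (-1.36, SE 0.22, adjusted p = 0.00256) and Phlda3 (-1.02, SE 0.27, adjusted p = 0.0252). Psrc1 ran from 2.91 through 4.21 to 5.47 CPM with vehicle and from 0.853 through 1.23 to 2.5 CPM at 50 mg/kg, and Gadd45a from 30.5 through 46 to 61.6 and from 12.6 through 16 to 27.6 CPM. Neither gene had overlapping groups, while the ranges of Phlda3 (2.2 to 4.54 and 0.91 to 2.64 CPM) overlapped. With library totals, which shifted the median of all genes by 0.66, 0 members fell and 4 rose at this dose: Psrc1 (-0.92), Gadd45a (-0.73), Abhd4 (-0.70) and Phlda3 (-0.38) were still negative but not called, and Ddb2, Bax, Pidd1 and Tnfrsf10b rose. Of all 24485 genes 2563 rose and 307 fell with library totals. Without the mice with high Alb 3 members fell, where 815 of 23442 genes fell, with Phlda3 at -0.88. The call of Phlda3 was lost in 7 of the 12 fits that left out a mouse, where its log2 fold change was -0.90 to -0.99.

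On Day 0 neither higher dose had a called member, with 0 by edgeR and 0 by DESeq2 in each. At 100 mg/kg edgeR called 0% of all genes and DESeq2 2 genes, and 0 members and 726 of 24000 genes had an unadjusted edgeR p under 0.05. At 200 mg/kg edgeR called 0% and DESeq2 2 genes, and Psrc1 (0.63) and Sesn2 (-0.33) had such a p, as did 2145 of 23795 genes in all. On Day 1 at 50 mg/kg 0% of genes and 0 members were called by edgeR, and 68 of 24118 genes and 0 members by DESeq2. An unadjusted edgeR p under 0.05 was reached by 8 members and by 4458 of 24118 genes in all. Cdkn1a stayed between 0.871 and 3.47 CPM in all 48 unirradiated mice, and its fold change against the vehicle mice of its day was not called at any dose.

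On Day 1 at 100 mg/kg 5 members rose and 4 fell, where 18.2% of 23699 genes rose and 30.6% fell. At 200 mg/kg 6 rose and 5 fell, where 17.3% of 23513 genes rose and 30.5% fell. Both doses share the same 6 vehicle mice. Phlda3 ran from 1.43 through 1.98 to 4.13 CPM with vehicle, from 14.1 through 19.2 to 25.9 CPM at 100 mg/kg and from 13.5 through 18.1 to 20.9 CPM at 200 mg/kg (log2 3.08, SE 0.26, adjusted p = 2.37e-07, and 2.96, SE 0.25, adjusted p = 1.46e-07). Psrc1 had medians of 3.33, 15 and 17.9 CPM in the same order (log2 2.31, adjusted p = 7.57e-08, and 2.58, adjusted p = 2.52e-07). Gadd45a had medians of 30, 113 and 111 CPM (log2 2.00, adjusted p = 2.12e-08, and 2.02, adjusted p = 2.5e-08), and Abhd4 of 31.9, 106 and 118 CPM (log2 1.86 and 1.98). In these 4 genes no treated mouse of either dose overlapped a vehicle mouse. They are the members that were called lower at 50 mg/kg on Day 0. With library totals all 4 stayed positive, but at 100 mg/kg Phlda3 (1.67) was called and Psrc1 (0.92), Gadd45a (0.59) and Abhd4 (0.46) were not, and at 200 mg/kg Phlda3 (1.45) and Psrc1 (1.03) were called and Gadd45a (0.48) and Abhd4 (0.46) were not.

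Bbc3 rose by 1.24 and 1.20 at these doses, from a median of 7.84 CPM to 16.7 and 16 CPM, but with library totals its log2 fold change was -0.16 and -0.34. Eda2r rose by 2.19 (SE 0.66, adjusted p = 0.00946) at 200 mg/kg, with a median of 0.465 CPM, and had 1.42 (adjusted p = 0.0937) at 100 mg/kg. The members that fell were Mdm4 (-1.05 and -1.001), Tnfrsf10b (-1.79 and -1.16), Ddb2 (-1.40 and -1.60) and Ephx1 (-1.20 and -1.52) at both doses, and Aen at 200 mg/kg (-1.11; -0.97 at 100 mg/kg). Aen and Tnfrsf10b had risen after irradiation. With library totals, which shifted the median of all genes by -1.38 and -1.48, 1 member rose and 24 fell at 100 mg/kg, and 2 rose and 27 fell at 200 mg/kg. These counts are to be read against all genes under that scaling. At 100 mg/kg 980 of 23699 genes rose and 14735 fell, and at 200 mg/kg 712 of 23513 rose and 15407 fell.

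Trp53 mRNA was lower at these doses, though under the fold limit: it ran from 15.7 through 18.8 to 23.2 CPM at 100 mg/kg (-0.58, adjusted p = 0.0018) and from 14.6 through 20.9 to 23.2 CPM at 200 mg/kg (-0.54, adjusted p = 0.00354). With TMM scaling all 12 of these mice lay below the lowest vehicle mouse of Day 1, at 24.8 CPM, and above the highest irradiated, vehicle-treated mouse, at 13.6 CPM. The TMM factors ran from 0.41482 (mouse 47) to 0.68014 (mouse 38) in the 12 mice. They ran from 0.66276 (mouse 50) to 1.3688 (mouse 51) in the irradiated, vehicle-treated mice. The place of the 12 mice above the irradiated ones therefore depends on TMM scaling. In the other unirradiated groups the median of Trp53 lay between 28.8 and 36.8 CPM. Mdm2 had medians of 45.1 and 48.6 CPM at 100 and 200 mg/kg on Day 1 (0.58 and 0.57), between 31.2 and 33.8 CPM in the other unirradiated groups, and 75.9 and 80.7 CPM in the irradiated ones. Library totals shifted the median of all genes by -1.38 and -1.48 at these doses, more than the 0.58 and 0.57 of Mdm2. The direction of its differences at these doses therefore depends on TMM scaling. The median ratio of Mdm2 to Trp53 was 2.35 and 2.33 at these doses, between 0.858 and 1.11 in the other unirradiated groups, and 7.89 and 6.89 after irradiation with vehicle and with BIO 300. Cdkn1a medians over the unirradiated groups lay between 1.24 CPM, with vehicle on Day 0, and 2.85 CPM, at 200 mg/kg on Day 1.

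Platelet and red cell transcripts moved in the same direction as Phlda3, Psrc1, Gadd45a and Abhd4 in the 3 unirradiated comparisons in which these were called, but not in each irradiated one. All 7 erythroid and all 7 platelet markers rose at 100 and at 200 mg/kg on Day 1, and all 8 B cell and all 8 T cell markers fell. At 50 mg/kg on Day 0, 5 of 7 platelet and 3 of 7 erythroid markers fell. Summed erythroid markers ran from 78678.9 to 117157.1 CPM with vehicle on Day 1, from 316784.8 to 585264 CPM at 100 mg/kg and from 276357.5 to 624072.4 CPM at 200 mg/kg, and from 87498.9 to 163099.8 CPM with vehicle and 30086.8 to 107881.4 CPM at 50 mg/kg on Day 0. Summed platelet markers ran from 1750 to 3525.8 CPM with vehicle on Day 1, from 13393.4 to 29388.1 CPM at 100 mg/kg and from 12804.6 to 22378.8 CPM at 200 mg/kg. After irradiation alone all 4 genes rose with all 7 platelet markers, while 0 of 7 erythroid markers were called. At 200 mg/kg irradiation raised Phlda3 by 1.24 where 5 of 7 erythroid markers fell and 0 of 7 platelet markers were called. No marker of these lists was at 0 in every mouse of a group, and the part of these cells in the members' changes was not tested.

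**Figure D4:**
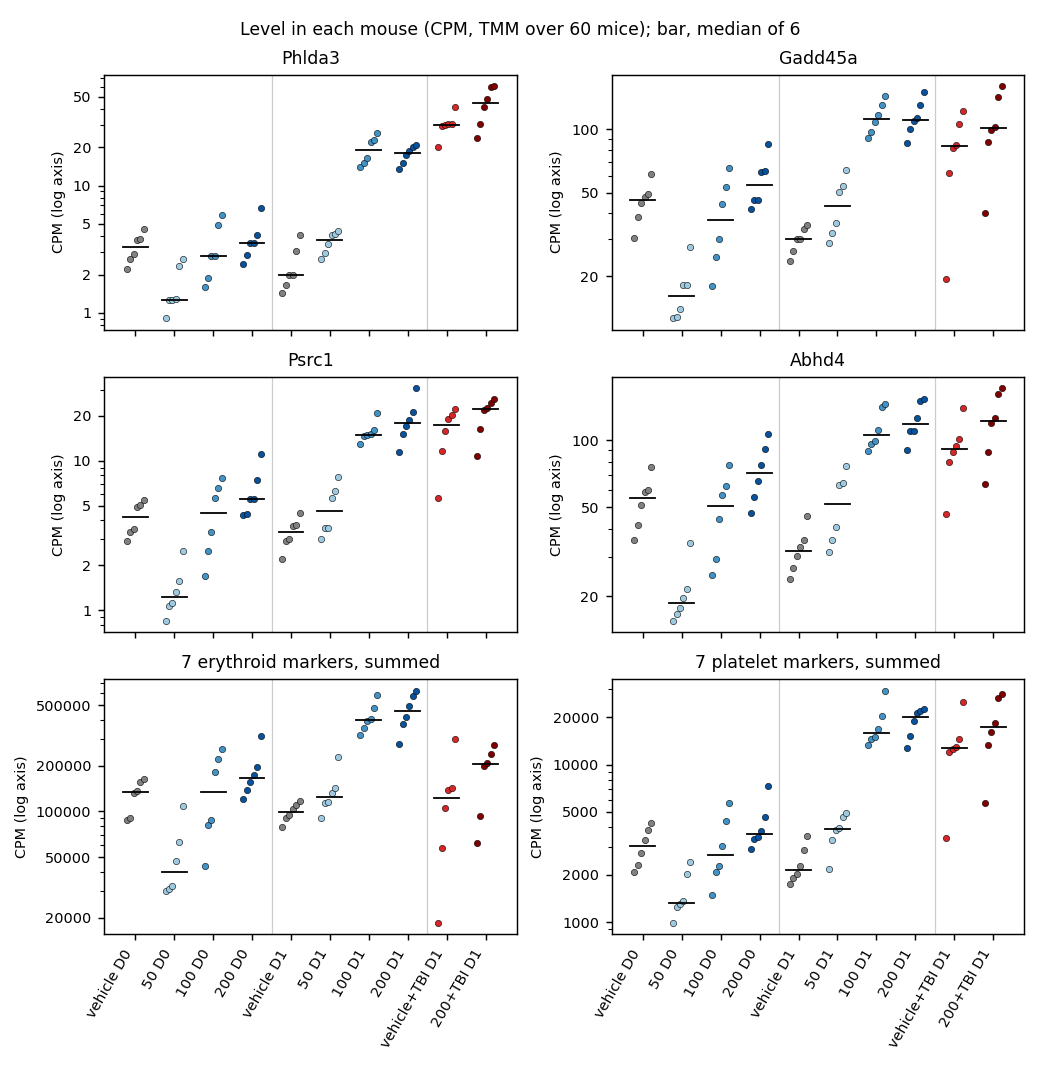
CPM on a log axis in each of the 60 mice, by group, of Phlda3, Gadd45a, Psrc1 and Abhd4 and of the summed erythroid and platelet markers (7 genes each); a bar is the group median. The 12 mice at 100 and 200 mg/kg on Day 1 lie above the vehicle mice in all 6 panels.

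The ratio of Phlda3 to Cdkn1a was looked at after their values were seen, and so is a description only. It ran from 4.47 through 10.6 to 14.3 at 100 mg/kg and from 4.45 through 6.49 to 14.6 at 200 mg/kg on Day 1. It ran from 0.794 through 1.47 to 1.97 in vehicle mice of that day and from 0.258 through 1.07 to 2.47 after irradiation with vehicle. Both drug groups lay above these without overlap, while the irradiated mice overlapped the vehicle mice. In vehicle mice of Day 0 the ratio was higher than in those of Day 1, from 1.77 through 2.59 to 4, just below the 2 drug groups. After irradiation with BIO 300 it ran from 0.385 through 1.52 to 2.35. The ratio ran from 1.32 to 4.5 at 50 mg/kg on Day 1 and from 2.23 to 4.77 at 200 mg/kg on Day 0, overlapping both the irradiated and the high-dose ranges, and from 0.657 to 2.17 and from 1.01 to 3.81 at 50 and 100 mg/kg on Day 0, overlapping the irradiated mice. Both transcripts had risen after irradiation.

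Other genes of the pathway were read from lists drawn up with earlier results of these data known, against the shares of all genes called that are given above (19.6% higher and 16.4% lower for irradiation alone). Of 13 kinases and cofactors that activate p53, 2 rose and 3 fell after irradiation alone, with Atm (-1.64), Chek2 (1.496) and Atr (-1.27) the largest. Atm ran from 27.29 to 43.18 CPM without irradiation and from 8.577 to 18.88 CPM with it, without overlap. Of 10 family members, ligases and other inhibitors, 9 could be tested and Ppp1r13l rose (1.89). Of 20 further genes known to be induced by p53, 11 rose and 3 fell; Epha2 (3.79) and Gdf15 (3.41) were among those that rose. Gdf15, a stress cytokine, ran from 0.373 to 0.914 CPM and from 2.94 to 12 CPM, while the median of Epha2 was 0.756 CPM in irradiated mice and its highest value, 36.5 CPM, was in a mouse with high Alb. Of 10 cell cycle genes that p21 represses through the DREAM complex, 4 rose and 0 fell, led by Cdc25c (1.60), Ccnb1 (1.49) and Mki67 (1.42).

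At 100 mg/kg on Day 1 all 10 of these cell cycle genes rose, led by Cdc25c (2.57), Top2a (2.42) and Ccnb2 (2.34). At 200 mg/kg all 10 rose as well, led by Top2a (2.44), Ccnb2 (2.33) and Birc5 (2.29). At 50 mg/kg on Day 0 6 fell, where 4.38% of all genes fell, led by Mki67 (-1.42), Ccna2 (-1.38) and Ccnb2 (-1.30). In irradiated against unirradiated mice at 200 mg/kg 0 rose and 6 fell, led by Top2a (-1.53), Bub1 (-1.50) and Birc5 (-1.23). There 14.9% of all genes rose and 5.73% fell. The called erythroid markers moved in the same direction as these cell cycle genes in each of these comparisons, and their part was not tested. Of the kinases and cofactors 4 rose and 5 fell at 100 mg/kg, and 4 rose and 3 fell at 200 mg/kg, with Chek2 (2.44 and 2.40), Chek1 (2.03 and 1.83) and Hipk2 (1.60 and 1.82) the largest, and the inhibitor Cul9 fell at both doses (-1.05 and -1.33). Of the further induced genes 5 rose and 4 fell of 20 at both doses. For each of these lists the counts on Day 1 are to be read against 18.2% of all genes higher and 30.6% lower at 100 mg/kg, and 17.3% and 30.5% at 200 mg/kg. Gdf15 fell (-2.93 and -3.32) to at most 0.28 and 0.242 CPM, with a median of 0 at both doses, so that the size of these folds is rough. In irradiated mice at 200 mg/kg it ran from 1.48 to 6.81 CPM and was called higher than in the unirradiated ones.

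Some members moved with liver transcripts. In the 9 groups with a mouse over 100 CPM of Alb, the mouse with the most Alb was also the highest mouse for Perp in 9, for Plk3 and Dcxr in 8, for Rps27l in 7 and for Ei24 and Ephx1 in 6. Perp ran from 0.201 through 0.347 to 31.1 CPM in irradiated, vehicle-treated mice and from 0.0246 through 0.0408 to 1.86 CPM in the controls, and the highest mouse of each group was its highest in Alb. Its log2 fold change was 4.29 (SE 1.59, adjusted p = 0.0416) with all mice, 2.31 without the mice with high Alb, still called, and 2.79 without mouse 51 alone, not called; 7 of the 12 fits that left out a mouse lost the call. Dcxr ran from 1.77 to 2.3 CPM and from 2.94 through 4.8 to 27 CPM, without overlap, and had 2.16 with all mice and 1.08, called, without those with high Alb. In the irradiated BIO 300 mice against vehicle Perp went from 4.01, not called, to 2.38, called, and Dcxr from 1.73 to 1.15, called both times. Ei24 had 2.05 and 2.03, called both times, and Rps27l 0.86 and 0.07, not called, with and without these mice after irradiation alone. Ephx1 turned from 1.40, not called, to -1.34, called: its median was 8.43 CPM in irradiated mice and its highest value 204 CPM. Its falls at 100 and 200 mg/kg on Day 1 had -1.47 and -1.80 without these mice. Without these mice Cdkn1a had 3.87 and Eda2r 4.28, and 22 members rose and 4 fell, where 4813 of 23274 genes rose and 5476 fell.

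**Figure D5:**
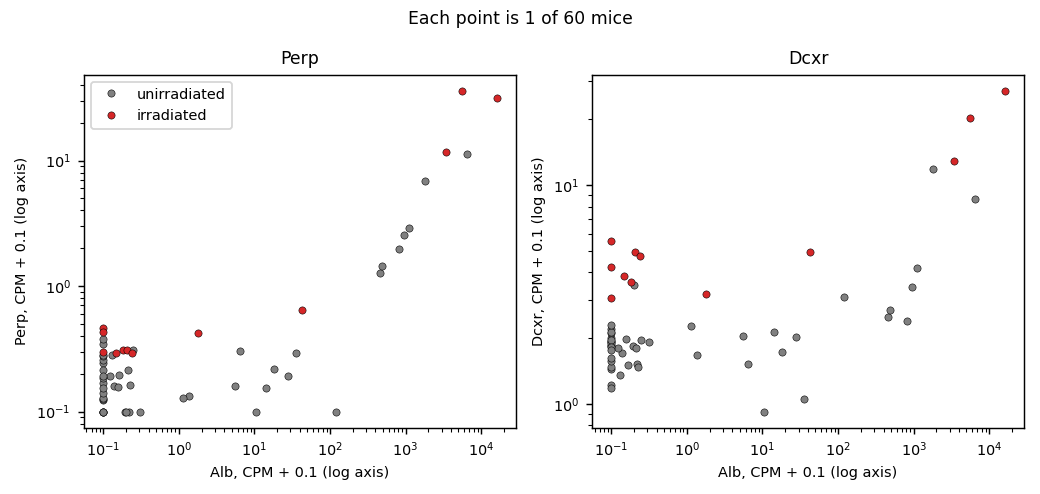
Perp and Dcxr against Alb in each of the 60 mice (CPM + 0.1, log axes), coloured as unirradiated or irradiated. The highest values of both genes belong to mice at the right, where Alb is high.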

How the data were processed

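RNA from whole blood was sequenced in 60 mice. Per the labels and the methods, the authors trimmed reads with Trimmomatic 0.36, aligned them with STAR 2.5.2b to GRCm38 and deposited raw gene counts made with Subread 1.5.2. The annotation release and the strand setting are not given in the sources used here; exons of 8 members share bases with another gene's exons, in 6 on the opposite strand (Cdkn1a, Ddb2, Ei24, Gadd45a, Plk3, Rrm2b), and reads of such pairs may not be told apart. The labels name polyA selection and the methods a ribosomal and globin RNA depletion kit. The tables also hold the authors' fold changes and p-values from DESeq2, which were not used. The 60 columns that repeat a mouse in a second table were identical and were used once.

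Pairs of groups were compared with edgeR 4.0.16 (quasi-likelihood F test, TMM scaling, genes with at least 10 counts over the mice compared, R 4.3.3, limma 3.58.1); standard errors are the log2 fold change divided by the square root of F. DESeq2 1.42.0, its size factors, library totals, other count filters, no fold limit, the odd or even animal number as a covariate, leaving out each mouse and leaving out mice with Alb over 100 CPM of the library total were tried. The script was tested on simulated counts. The smallest chi-square per gene between mice of a group was 11.987, and no pair of libraries was treated as 1 sample. The members and the lists were chosen with earlier results of these data known. Values in each group are given for Trp53, Mdm2, Cdkn1a and the 10 other called members with the largest changes after irradiation; in other comparisons the called ones among these 13 and the 3 largest called changes are named, and any further member was named after its values were seen. The value of 1 gene of the pathway lists is not reported here. Gene coordinates are from GENCODE M21 and sequences from RefSeq. The mice were separate animals, and p-values measure the spread between them; depth was at least 15099415 counts a mouse.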

Additional observations from a re-analysis of the deposited data

Results flagged for a closer look

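Of 130 sets of 6 mice checked (the 13 members with values in each group, in 10 groups), 26 had a single mouse far from the other 5. The limit used flags about 1 in 20 sets of independent, normally distributed values. These sets share mice and some hold values near 0, so that rate is only a rough guide here. Of the 26 mice 21 had Alb over 100 CPM of the library total. Perp had such a mouse in 9 groups: 11.12 CPM in mouse 17 (vehicle, Day 0), 1.859 in mouse 29 (vehicle, Day 1), 1.176 in mouse 1 (50 mg/kg, Day 0), 2.808 in mouse 9 (100 mg/kg, Day 0), 2.428 in mouse 21 (200 mg/kg, Day 0), 6.716 in mouse 37 (100 mg/kg, Day 1), 1.332 in mouse 43 (200 mg/kg, Day 1), 31.11 in mouse 51 (irradiated, vehicle) and 35.96 in mouse 57 (irradiated, BIO 300). Dcxr was high in mice 17 (8.593 CPM), 9 (4.087), 37 (11.75) and 57 (20.23), and Ei24 in mice 17 (32.56) and 37 (29.49). Mouse 17 was also high for Plk2, at 3.201 CPM.

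Mouse 51 was the highest irradiated, vehicle-treated mouse for Cdkn1a (78.39 CPM) and Trp53 (13.64 CPM), and mouse 57 the highest irradiated, BIO 300-treated mouse for Cdkn1a (61.09), Ccng1 (411.5) and Eda2r (10.48). Over all 38 members mouse 51 was the lowest of its group for 18 and the highest for 14, and mouse 57 the lowest for 18 and the highest for 12. The far values outside the mice with high Alb were Mdm2 in mouse 12 (100 mg/kg, Day 0; 38.79 CPM), Eda2r in mouse 25 (vehicle, Day 1; 0.343) and mouse 22 (200 mg/kg, Day 0; 0.4328), Sesn2 in mouse 30 (vehicle, Day 1; 7.688) and Bbc3 in mouse 10 (100 mg/kg, Day 0), which was the lowest of its group at 4.622 CPM.

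By the test of the interaction itself (edgeR, adjusted p under 0.05), the effect of 200 mg/kg BIO 300 differed between irradiated and unirradiated mice for 15 members, of which 12 were called. The largest called differences were those of Phlda3 (-2.27), Psrc1 (-2.07) and Ddb2 (1.61), on the log2 scale. Over all genes 19.5% were called higher and 10% lower, and the part of the cell type markers, which also differed, was not tested.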

How the results depend on the processing

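The number of called members stayed within 1.5 times its value in 97 of 104 alternatives that kept the mice of a comparison or left out those with high Alb. This compares numbers only, not directions or genes, and comparisons that stayed at 0 are counted among the 97. At 50 mg/kg on Day 0 the number stayed at 4 with library totals, although 4 members fell with TMM and 4 other members rose with library totals. On Day 1 at 100 mg/kg library totals called 25 members and no fold limit 23, and at 200 mg/kg they called 29 and 23. Library totals called 15715 of 23699 genes at 100 mg/kg and 16119 of 23513 at 200 mg/kg. The interaction called 21 with library totals and 7 with DESeq2's test or size factors, against 12. Of 26875 genes it called 12208 with library totals, 7772 with DESeq2's test and 7802 with its size factors, against 7945. Among the 176 values named by rule, 10 that were called with TMM or with library totals turned their direction with library totals. Changes of sign in values called under neither scaling were not counted. Bbc3 had been called and was then not, while the others had not been called and then were. At 100 mg/kg on Day 1 the values that turned were those of Plk2 (-1.04), Bbc3 (-0.16), Ei24 (-1.04) and Sesn2 (-1.11). At 200 mg/kg they were those of Ccng1 (-1.02), Bbc3 (-0.34), Ei24 (-1.23), Sesn2 (-1.39) and Dcxr (-1.41). The interaction of Sesn2 (1.13) turned as well. The different library scale is what this alternative changes. With library totals 7 other named values gained and 13 lost a call, without the mice with high Alb 2 gained and 1 lost, and without a low-count filter 1 lost; over the fits that left out a mouse 9 calls were gained and 22 lost (Perp 7 and Phlda3 at 50 mg/kg 7, Dcxr against Day 0 8). Leaving out 1 mouse at a time gave 24 to 27 called members for irradiation with vehicle on Day 1, 22 to 26 against Day 0, 23 to 28 for irradiated BIO 300 against vehicle, 17 to 21 within BIO 300, 3 to 4 at 50 mg/kg on Day 0, 9 to 11 and 9 to 13 at 100 and 200 mg/kg on Day 1, 8 to 13 in the interaction (8 without vehicle mouse 26), and 0 elsewhere. No paired analysis was possible because each animal number belongs to a single mouse. Members under 1 CPM, such as Perp and Eda2r in most unirradiated mice, rest on few counts.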
